A study of Mus musculus with 9 samples.

Results

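In sorted mouse bone marrow haematopoietic stem cells (HSCs), the self-renewing cells from which blood lineages arise, 10 genes were followed that move polyamines or supply the arginine from which they are made. They were taken by gene symbol, namely Atp13a2, Atp13a3, Slc22a3, Slc18b1, Slc12a8, Slc3a2, Slc7a1, Ass1, Arg1 and Arg2, and are 10 of the 19454 genes listed. All 10 had enough counts to be tested, as did 14461 genes in all. Polyadenylated RNA of 1500 sorted cells per library was copied to cDNA, enriched with 12 PCR cycles and sequenced, in 3 groups of 3 libraries from wild-type mice. In the inhibition with spermidine group, mice received a spermidine supplement and chemogenetic inhibition of mPFC and PAG, abbreviations that commonly stand for medial prefrontal cortex and periaqueductal grey. Chemogenetic silencing gives neurons a designed receptor that a matching drug engages. The inhibition group had the same silencing without spermidine, and the control group (Ctrl) has no brain intervention named in its labels. The library names of both silenced groups carry AAV, a viral gene carrier, so effects of virus, drug and silencing cannot be told apart against control. The labels give no sex, age, spermidine dose or route, vehicle, sort markers, batch or source animal, so each p-value reflects library-to-library spread alone, which may be technical.

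Polyamines (putrescine, spermidine and spermine) are small positively charged molecules that bind nucleic acids, and spermidine is also the donor of the hypusine residue of the translation factor eIF5A. Cells make them from ornithine, which arginase cuts from arginine, or take them up and release them from lysosomes and vesicles through carriers. Arginine itself enters through cationic amino acid carriers or is remade from citrulline by argininosuccinate synthetase and argininosuccinate lyase.

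Total counts were 16096276 to 25360256 per library. Levels are in CPM, read counts relative to library size after trimmed-mean correction (TMM), or in TPM (also scaled for transcript length) wherever genes are compared with each other. A count of 0 allows up to 0.118 to 0.186 CPM (3 counts), which covers counting error only. Of the 10 HSC and progenitor markers none was at 0 in any group. Against control, in the test named below, 6 were called higher and 3 lower with inhibition. With inhibition and spermidine 7 were called higher and 2 lower. Of all genes 72.4% and 78.1% were called in these comparisons. Kit, the stem cell factor receptor, averaged 46.5 CPM in inhibition with spermidine, 36.5 CPM in inhibition and 43.3 CPM in control libraries. Ly6a (Sca-1) averaged 94.5, 83.5 and 6.21 CPM, and Procr (EPCR) 7.59, 4.10 and 0.125 CPM, in the same order, both low in control. The Procr mean in control was under the level of 3 counts in those libraries, so its presence there is uncertain. Slamf1 (CD150) averaged 13.8, 17.6 and 104.5 CPM and was highest in control. Cd34 (78.7, 55.7 and 9.21 CPM), Hlf (37.6, 22.3 and 2.50 CPM) and Mecom (12.7, 11.5 and 2.64 CPM) were lowest in control. The 14 neutrophil granule markers summed to 21867 to 22545 CPM with inhibition and spermidine, 61048 to 62952 CPM with inhibition and 5596 to 5875 CPM in control, and no marker of that list was at 0 in any group. In bulk libraries such as these, fewer cells of a type and less RNA per cell cannot be told apart.

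Promoters of 7 of the 10 genes were matched in the RefSeq table (build GRCm38.p6), in windows from 250 bases before to 50 bases after an annotated start. No window was matched for Atp13a3, Arg1 and Arg2. Those of Atp13a2, Slc22a3 and Ass1 are shown as examples, 1 for a lysosomal carrier, 1 for a cell surface carrier and 1 for arginine synthesis, of genes that were lower in both silenced groups than in control under each setting tried. Slc7a1, with windows at 2 starts that held neither motif, was also lower under each setting. Capitals mark CACGTG (E-box, its own reverse complement), searched on both strands together with TGATGNAA (the amino acid response element). They lie at chr4:140986671-140986970 (plus strand), chr17:12507655-12507954 (minus strand) and chr2:31470020-31470319 (plus strand).
Atp13a2: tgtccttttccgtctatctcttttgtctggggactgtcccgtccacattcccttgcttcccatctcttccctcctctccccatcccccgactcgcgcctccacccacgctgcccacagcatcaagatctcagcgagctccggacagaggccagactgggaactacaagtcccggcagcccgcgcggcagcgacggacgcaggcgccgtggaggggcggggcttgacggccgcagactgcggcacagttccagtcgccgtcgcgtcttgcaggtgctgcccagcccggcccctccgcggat
Slc22a3: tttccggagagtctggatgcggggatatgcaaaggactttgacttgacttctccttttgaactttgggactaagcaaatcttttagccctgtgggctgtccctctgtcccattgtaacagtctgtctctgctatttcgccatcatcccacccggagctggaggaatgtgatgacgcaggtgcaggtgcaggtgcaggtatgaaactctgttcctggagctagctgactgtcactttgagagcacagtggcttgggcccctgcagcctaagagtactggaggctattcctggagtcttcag
Ass1: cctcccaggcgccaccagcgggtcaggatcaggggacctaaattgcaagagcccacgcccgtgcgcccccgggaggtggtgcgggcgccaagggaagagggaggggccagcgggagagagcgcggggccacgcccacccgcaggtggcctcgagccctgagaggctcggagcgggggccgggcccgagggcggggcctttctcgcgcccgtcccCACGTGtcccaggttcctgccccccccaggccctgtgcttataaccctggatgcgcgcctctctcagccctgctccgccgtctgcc
The Ass1 window held the single CACGTG, 36 bases before the start, and no TGATGNAA was found in the 10 windows of the 7 genes. Of 32851 such windows 7.15% held CACGTG and 3.97% held TGATGNAA. The windows of Atp13a2 and Ass1 were 66.7% and 74.0% G and C, against a median of 52.7% over all windows and 52.0% for Slc22a3.

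**Figure D1:**
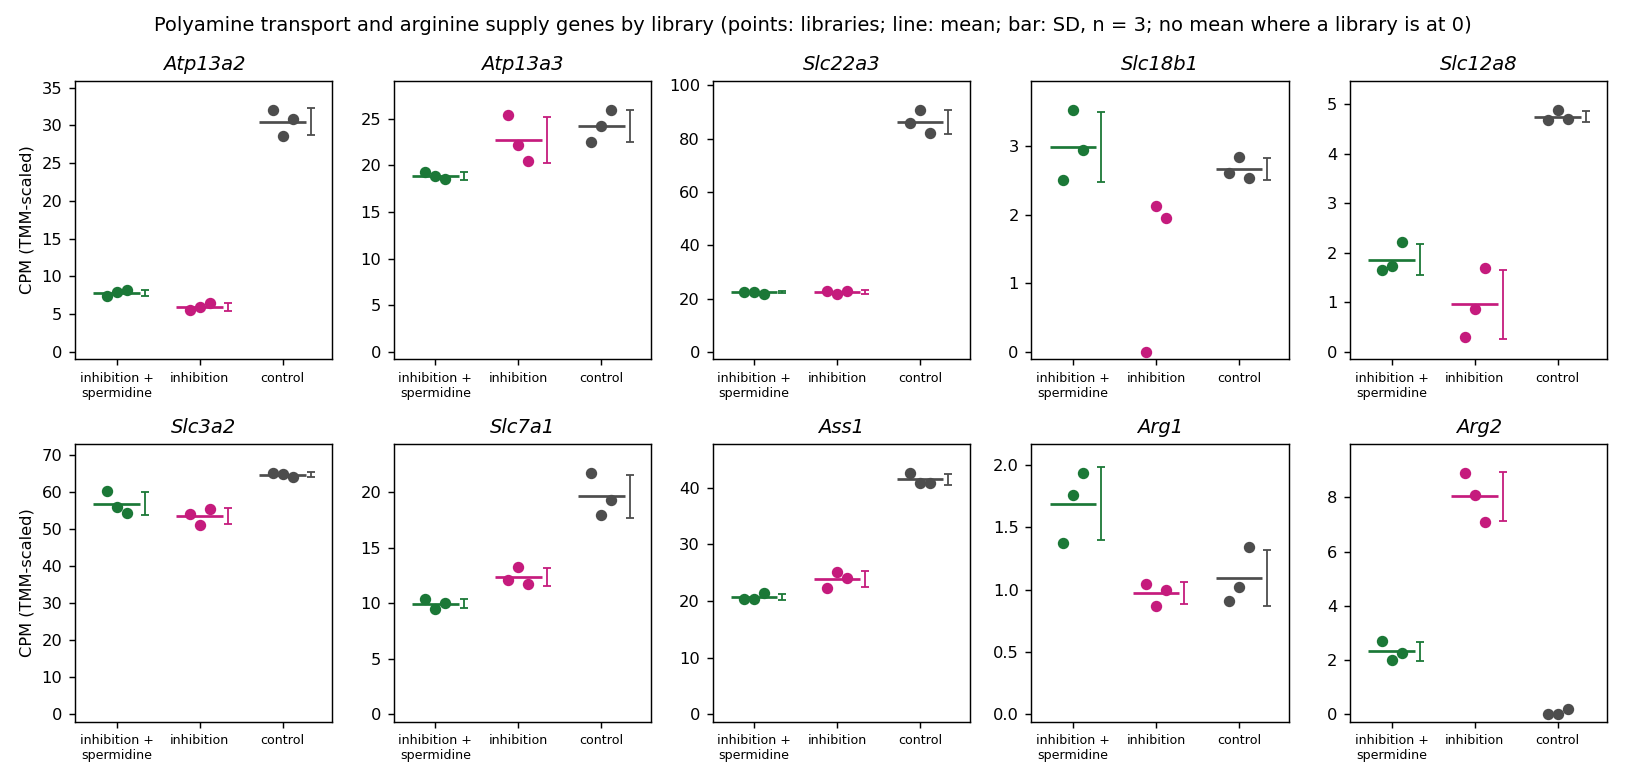
CPM of the 10 genes in each of the 9 libraries, with the group mean as a line and the SD as a bar (n = 3), omitted where a library is at 0. Atp13a2, Slc22a3, Slc12a8, Slc7a1 and Ass1 stand highest in control, Arg2 highest with inhibition, and Slc18b1 is at 0 in 1 inhibition library.

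Among the polyamine carriers, Atp13a2 was lower in both silenced groups than in control. It is a lysosomal P5B-type ATPase that releases polyamines from lysosomes into the cytosol (ENSMUSG00000036622, chromosome 4, positions 140986873 to 141007330, plus strand, protein-coding; gene bounds here and below are those of GENCODE M21 on mm10). Its level was 7.42, 7.87 and 8.14 CPM in the inhibition with spermidine libraries, 5.47, 5.90 and 6.50 CPM in the inhibition libraries and 32.0, 28.5 and 30.9 CPM in control libraries. The 3 groups did not overlap, and both silenced groups lay far below control. The log2 fold change was -2.35 (SE 0.078, adjusted p = 4.29e-14) for inhibition against control, 0.38 (SE 0.092, adjusted p = 0.00225) for spermidine against inhibition alone, and -1.97 (SE 0.073, adjusted p = 2.07e-13) for spermidine against control (quasi-likelihood test of edgeR with Benjamini-Hochberg adjustment across all 14461 genes and a threshold of 0.05, as for each adjusted p below unless limma or DESeq2 is named).

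Atp13a3, the related ATPase of endosomes and the cell surface that serves polyamine uptake (ENSMUSG00000022533, chromosome 16, positions 30312423 to 30405975, minus strand), differed less in counts. It stood at 19.3, 18.8 and 18.5 CPM with inhibition and spermidine, at 25.4, 22.2 and 20.5 CPM with inhibition and at 22.5, 24.2 and 26.0 CPM in control. Inhibition and control overlapped and did not pass (-0.10 on the log2 scale, SE 0.074, adjusted p = 0.221, or -0.18 with adjusted p = 0.0358 without inhibition replicate 1), while the spermidine libraries lay below all others. Inhibition was called lower than control by limma on log2(TPM + 1) (-0.26, adjusted p = 0.0447) and log2(TPM + 0.1) (-0.33, adjusted p = 0.0447), and with the transcript length implied by count and TPM, described below, as an offset in edgeR (-0.40, adjusted p = 0.00569). With spermidine Atp13a3 fell by 0.26 on the log2 scale against inhibition (SE 0.074, adjusted p = 0.00740) and by 0.36 against control (SE 0.074, adjusted p = 0.000334), and neither call held with total count scaling (0.0040 and -0.097). Under that scaling the log2 fold change of the median gene shifted by 0.26 for spermidine, whether set against inhibition or control. On log2(TPM + 1) the call against inhibition was lost as well (-0.11, adjusted p = 0.366).

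Slc22a3 encodes the organic cation transporter OCT3, a low-affinity carrier of monoamines and polyamines (ENSMUSG00000023828, chromosome 17, positions 12418960 to 12507704, minus strand). It was at 22.4, 22.6 and 21.9 CPM in inhibition with spermidine, 22.8, 21.5 and 22.9 CPM in inhibition and 86.0, 90.7 and 82.0 CPM in control libraries. The silenced groups overlapped, with control far above both. It fell by 1.95 on the log2 scale with inhibition (SE 0.049, adjusted p = 8.84e-16) and by 1.95 with inhibition and spermidine (SE 0.048, adjusted p = 7.74e-16), against control in each case. Between the silenced groups the log2 fold change was -0.0030 (SE 0.055, adjusted p = 0.994), although it was 0.26 (adjusted p = 0.000578) with total count scaling. The 7 megakaryocyte and platelet markers summed to 171 to 180 CPM with inhibition and spermidine, 162 to 172 CPM with inhibition and 2981 to 3005 CPM in control. Most of that sum was Pf4 (97.3, 104 and 2673 CPM in the same order), though all 7 were lower with inhibition than in control. The 7 erythroid markers listed summed to 262 to 279, 558 to 614 and 1762 to 1805 CPM. Most of the control sum was Car1 (26.0, 29.7 and 1597 CPM in the same order). Of the 7, 3 globin genes (Hba-a1, Hba-a2 and Hbb-bt) were higher and 4 genes, Car1 among them, lower with inhibition than in control. Hba-a2, for example, averaged 143, 327 and 47.9 CPM. The part of such cells in the differences of Slc22a3 or the other genes was not tested. Slc22a3 overlaps 426 bases of Plg on the opposite strand, which held at most 2.10 counts in any library.

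Slc18b1, the vesicular polyamine transporter (ENSMUSG00000037455, chromosome 10, positions 23796986 to 23827968, plus strand), was low throughout. It was at 2.50, 3.52 and 2.93 CPM in inhibition with spermidine, at 2.12 and 1.95 CPM in inhibition replicates 2 and 3 and listed at 0 in replicate 1, and at 2.61, 2.84 and 2.53 CPM in control. The deposited counts are estimates, many of them fractional, so a listed 0 may be a failed estimate. It rose with spermidine against inhibition (log2 fold change 1.03, SE 0.41, adjusted p = 0.0415), a change of 0.52 (adjusted p = 0.0280) without inhibition replicate 1, and DESeq2 did not call it (1.11, adjusted p = 0.382). The call was also lost without spermidine replicate 2 (0.87, adjusted p = 0.141) or 3 (1.04, adjusted p = 0.0680) or control replicate 2 (1.02, adjusted p = 0.0512). The other comparisons did not pass, at -0.86 (SE 0.43, adjusted p = 0.0853) for inhibition against control, -0.38 without inhibition replicate 1 and -1.33 (adjusted p = 0.0288) without inhibition replicate 2, and 0.17 (SE 0.38, adjusted p = 0.691) for spermidine against control.

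Slc12a8, a member of the cation-chloride cotransporter family whose human form has been linked to polyamine and amino acid transport (ENSMUSG00000035506, chromosome 16, positions 33517328 to 33664135, plus strand), was also low. Its libraries held 1.65, 1.72 and 2.21 CPM with inhibition and spermidine, 0.307, 0.872 and 1.70 CPM with inhibition, and 4.67, 4.88 and 4.69 CPM in control. Control lay above both silenced groups, which overlapped each other. In counts it fell by 2.25 with inhibition (log2 scale, SE 0.28, adjusted p = 1.56e-06) and by 1.37 with inhibition and spermidine (SE 0.24, adjusted p = 8.05e-05), against control. Without inhibition replicate 3 the fall with inhibition was larger (-2.89, adjusted p = 9.89e-08). It was 0.89 higher on the log2 scale with spermidine than with inhibition alone (SE 0.32, adjusted p = 0.0252), a call lost without inhibition replicate 1 (0.52, adjusted p = 0.0972), inhibition replicate 2 (0.78, adjusted p = 0.0895) or spermidine replicate 3 (0.76, adjusted p = 0.0783), and larger without inhibition replicate 3 (1.51, adjusted p = 0.000779).

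In TPM the order of the Slc12a8 groups was different. It stood at 1.67, 1.51 and 2.35 TPM with inhibition and spermidine, against 1.16, 1.31 and 1.37 TPM in control, and was higher with spermidine by limma on log2(TPM + 1) (log2 difference 0.31, adjusted p = 0.0469). The ratio of count to TPM gives the transcript length that the deposited values imply, and for Slc12a8 it was 799 to 968 bases with inhibition and spermidine, 568 to 1502 bases with inhibition and 2233 to 2601 bases in control. The annotated coding transcripts of Slc12a8 span 2070 to 3166 bases and its 1 non-coding transcript has 675 bases. With that length as an offset in edgeR, an analysis added after these values were seen, the difference from control was 0.11 (adjusted p = 0.688) with spermidine and -1.25 (adjusted p = 0.00116) with inhibition. The direction against control in the spermidine group therefore depends on the unit.

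**Figure D2:**
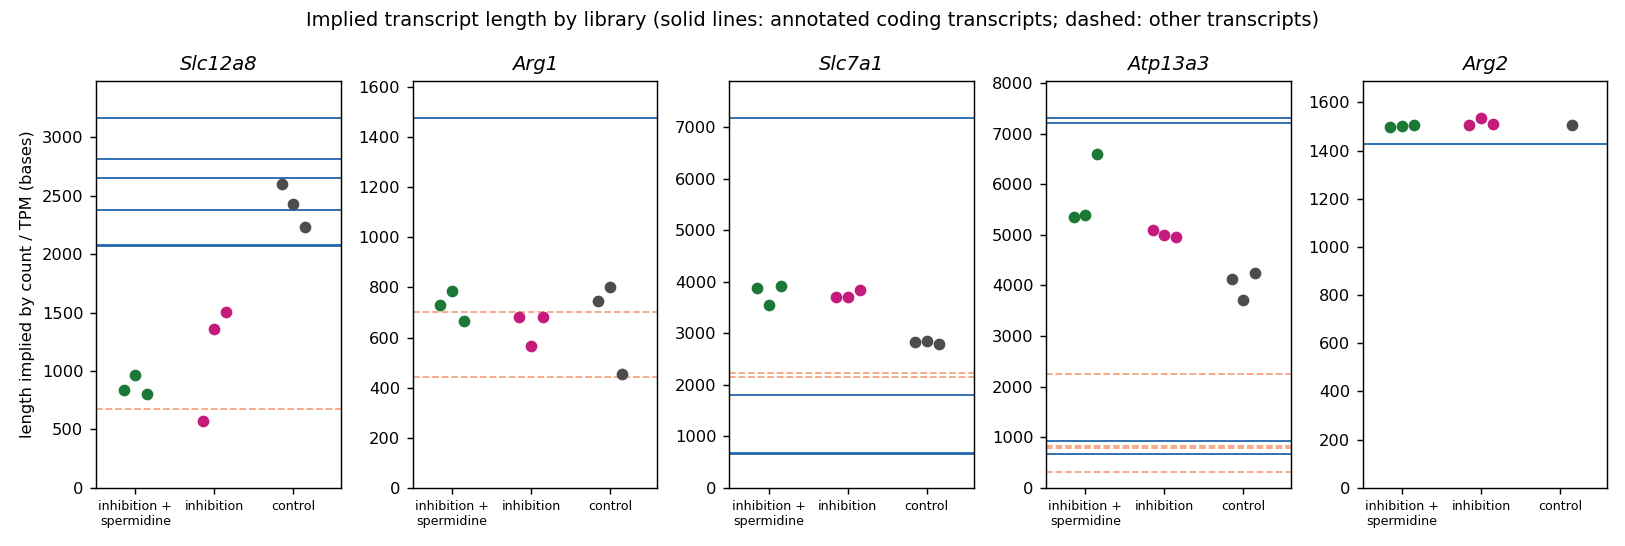
Transcript length implied by deposited count over TPM, in bases, for 5 genes in each library, with annotated transcript lengths as lines (solid, coding; dashed, other). Slc12a8 falls below its coding transcripts in both silenced groups, Arg1 lies below its single coding transcript in all 9 libraries, and Arg2, with 1 annotated transcript of 1428 bases, stays between 1496 and 1535 bases.

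Among 10307 genes with at least 20 counts in each library, the implied length moved by over 0.5 on the log2 scale in 7.2% for inhibition against control and in 7.6% for spermidine against control. Slc12a8, Slc18b1, Arg1 and Arg2 had under 20 counts in some libraries, so they lie outside those 10307 genes. The shifts that follow compare group mean lengths, whereas the shares compare means of log2 length, so the 2 are not like for like. Of the 10 genes Slc12a8 moved by -1.08 and -1.48 in these comparisons and Atp13a3 by 0.32 and 0.52. Slc7a1 moved by 0.41 and 0.42 and Slc3a2 by 0.25 and 0.35, whereas Atp13a2, Slc22a3, Ass1, Arg2 and Slc18b1 moved by at most 0.08 in size. For Atp13a3 the mean implied length was 5778 bases with inhibition and spermidine and 5023 bases with inhibition, against 4034 bases in control.

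Slc3a2, the CD98 heavy chain that carries amino acid exchangers to the cell surface and has been linked to polyamine export in human cells (ENSMUSG00000010095, chromosome 19, positions 8706882 to 8723369, minus strand), was the most abundant of the 10 per transcript in every group. It stood at 60.4, 56.1 and 54.6 CPM with inhibition and spermidine, at 54.1, 51.3 and 55.6 CPM with inhibition and at 65.3, 65.1 and 64.1 CPM in control. Control lay above both silenced groups, which overlapped. The falls against control were small, at 0.28 on the log2 scale with inhibition (SE 0.045, adjusted p = 3.57e-05) and 0.18 with inhibition and spermidine (SE 0.044, adjusted p = 0.00123). The second turned to 0.079 (adjusted p = 0.102) with total count scaling. Spermidine against inhibition did not pass (0.091, SE 0.045, adjusted p = 0.0901), but did with total count scaling (0.35, adjusted p = 2.55e-06).

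In amino acid exchange CD98 works in pairs with a light chain, so its level was set beside that of 6 light chains (Slc7a5, Slc7a6, Slc7a7, Slc7a8, Slc7a10 and Slc7a11), in TPM. The ratio of Slc3a2 to their sum was 3.83 ± 0.34 with inhibition and spermidine, 2.83 ± 0.34 with inhibition and 4.55 ± 0.48 in control (SD, n = 3 each). Libraries of the inhibition group (2.50 to 3.18) lay below those of the spermidine group (3.45 to 4.11) and of control (4.06 to 5.03), and the last 2 ranges overlapped. With 3 libraries against 3 an exact permutation test cannot go below p = 0.10, so none was run.

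The light chains themselves moved in different directions. Slc7a11, the cystine-glutamate exchanger xCT, averaged 9.85 ± 0.34 CPM with inhibition and spermidine, 14.4 ± 0.95 CPM with inhibition and 3.29 ± 0.62 CPM in control (SD, n = 3 each). It rose with inhibition (log2 fold change 2.13, adjusted p = 2.15e-11) and was lower with spermidine than with inhibition alone (-0.55, adjusted p = 6.83e-05). Slc7a5, the large neutral amino acid exchanger LAT1, averaged 3.21 CPM with inhibition and spermidine, 5.42 CPM with inhibition and 7.15 CPM in control, and fell in each comparison (-0.41, adjusted p = 0.00326, for inhibition against control). Slc7a6, an exchanger of arginine for neutral amino acids, passed in no comparison (adjusted p of 0.0629 to 0.652). Of 5 light chains tested 2 rose and 1 fell with inhibition against control, 3 fell with spermidine against inhibition, and 2 rose and 2 fell with spermidine against control. The shares over all genes in these comparisons were 72.4%, 58.1% and 78.1%, and 5 genes are too few to set these counts apart from them.

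**Figure D3:**
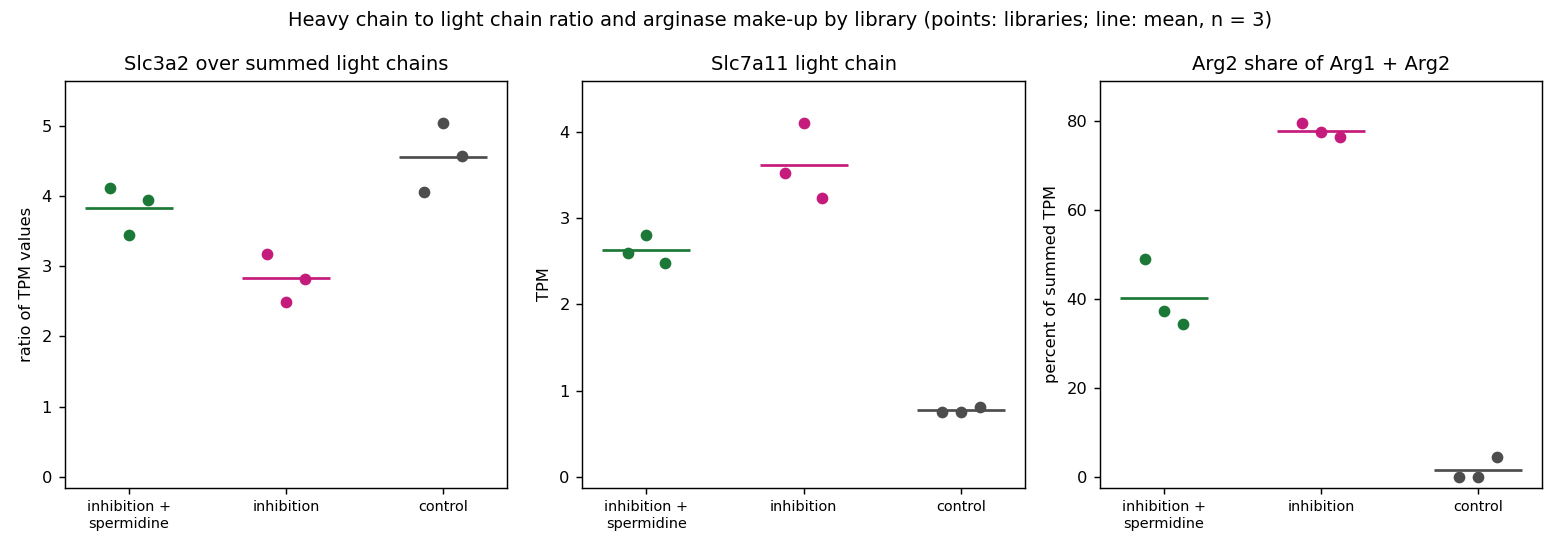
Ratio of Slc3a2 to its summed light chains (left), TPM of the light chain Slc7a11 (middle) and the share of Arg2 in summed arginase TPM (right), by library, with group means as lines (n = 3). The inhibition group has the lowest ratio, the highest Slc7a11 and the highest Arg2 share.

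Slc7a1, the cationic carrier CAT1 that brings arginine into most cells (ENSMUSG00000041313, chromosome 5, positions 148327410 to 148399904, minus strand), was lower in both silenced groups. It was at 10.4, 9.51 and 10.02 CPM in inhibition with spermidine, 12.0, 13.3 and 11.7 CPM in inhibition and 21.7, 17.9 and 19.2 CPM in control libraries. The 3 groups did not overlap. It fell by 0.66 on the log2 scale with inhibition (SE 0.081, adjusted p = 1.34e-06) and by 0.97 with inhibition and spermidine (SE 0.082, adjusted p = 1.14e-08), against control. Its further fall with spermidine against inhibition (-0.32, SE 0.086, adjusted p = 0.00509) was lost with total count scaling (-0.055, adjusted p = 0.589) and on log2(TPM + 1) (-0.0080, adjusted p = 0.941).

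Ass1, argininosuccinate synthetase, which joins citrulline and aspartate in the resynthesis of arginine (ENSMUSG00000076441, chromosome 2, positions 31470207 to 31520672, plus strand), stood at 20.4, 20.4 and 21.4 CPM with inhibition and spermidine. It was at 22.3, 25.2 and 24.1 CPM with inhibition and at 42.6, 40.9 and 40.9 CPM in control. Control was highest, and no groups overlapped. The log2 fold change was -0.79 (SE 0.053, adjusted p = 6.29e-10) for inhibition and -1.001 (SE 0.053, adjusted p = 2.72e-11) for inhibition with spermidine, against control. Between the silenced groups it was -0.21 (SE 0.056, adjusted p = 0.00425), and turned to 0.049 (adjusted p = 0.465) with total count scaling. Asl, argininosuccinate lyase, which completes the same route, fell alongside (15.3 ± 0.87 CPM with inhibition and spermidine and 17.7 ± 0.94 CPM with inhibition, against 31.8 ± 2.66 CPM in control; log2 fold change of -1.06 with spermidine, adjusted p = 4.51e-10, and -0.85 with inhibition, adjusted p = 8.18e-09).

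The arginases split. Both cut arginine into ornithine and urea, Arg1 in the cytosol and Arg2 in mitochondria. Arg2 (ENSMUSG00000021125, chromosome 12, positions 79130777 to 79156301, plus strand) was at 2.70, 2.00 and 2.27 CPM in inhibition with spermidine, at 8.91, 8.10 and 7.10 CPM in inhibition, and at 0, 0 and 0.206 CPM in control. The 3 groups did not overlap, and the spermidine group lay between the others. As with Slc18b1, the 0 listed in control replicates 1 and 2 may be a failed estimate. Summed counts were 482 with inhibition and 4 in control, the latter all from control replicate 3. Per total count the ratio was 109, with a 95% counting interval of 42.3 to 402 (exact binomial). With inhibition and spermidine the summed count was 159, a ratio to control of 38.0 (14.5 to 141). These intervals pool the 3 libraries of each group, so they leave out library-to-library spread. The log2 fold changes, which depend on the prior count at such low control values, were 6.66 (SE 0.36, adjusted p = 2.89e-11) and 4.87 (SE 0.46, adjusted p = 5.94e-08). Without control replicate 3 they were 10.4 and 8.57.

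Against inhibition alone, Arg2 fell by 1.78 on the log2 scale with spermidine (SE 0.17, adjusted p = 2.67e-07), and was lower under every setting tried. The neutrophil granule marker sum, given above, had the same order of groups, and all 14 of those markers rose with inhibition and all 14 fell with spermidine against inhibition. So had the sum of the 8 B and plasma cell markers, at 1744 to 1886 CPM with inhibition and spermidine, 4608 to 5023 CPM with inhibition and 82.0 to 83.6 CPM in control, and of the 7 tested 7 rose with inhibition and 6 fell with spermidine against inhibition. The monocyte and macrophage marker sum, given with Arg1, also had this order, and no marker of these 3 lists was at 0 in any group. The T and NK cell sum, mostly Nkg7, was lowest with spermidine, at 1000 to 1078 CPM. It was 1898 to 2008 CPM with inhibition and 1275 to 1360 CPM in control. The basophil, eosinophil and mast cell sum, mostly Prg2, had that order too (818 to 832, 1174 to 1190 and 1087 to 1115 CPM). Of the markers tested, 5 of 6 and 7 of 11 were higher with spermidine than in control, and 1 and 3 were lower. The part of any of these cell types in the Arg2 differences was not tested. Arg2 shares 285 bases with Vti1b on the opposite strand, and no stranded step is stated. Vti1b held 453 to 586 counts with inhibition and spermidine, 299 to 468 with inhibition and 331 to 343 in control, and its part in the Arg2 counts was not tested. The antisense genes annotated over Arg2 (Gm48780) and Slc22a3 (AC132106.1) were not analysed here.

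Arg1, the liver-type enzyme that also marks some macrophages (ENSMUSG00000019987, chromosome 10, positions 24915221 to 24927484, minus strand), had only 15 to 45 counts in any library. Its levels were 1.37, 1.76 and 1.94 CPM with inhibition and spermidine, 1.04, 0.872 and 1.00 CPM with inhibition and 0.910, 1.02 and 1.34 CPM in control. The spermidine libraries lay above the rest, and the other groups overlapped. It was higher with spermidine than with inhibition alone (log2 fold change 0.79, SE 0.23, adjusted p = 0.00810; 0.60 and adjusted p = 0.166 with the implied length as offset) and than control (0.61, SE 0.23, adjusted p = 0.0249). The call against control was lost without spermidine replicate 2 or 3 or control replicate 1 or 2 (adjusted p of 0.0699 to 0.102) and with DESeq2 (0.0965). Its implied length was 454 to 804 bases, where the only coding transcript has 1477 bases and the retained-intron transcripts have 702 and 443 bases. Of the 11 monocyte and macrophage markers tested 1 rose and 8 fell with spermidine against inhibition, and their sum was 190 to 197 CPM with inhibition and spermidine, 329 to 339 CPM with inhibition and 133 to 139 CPM in control. Their part in the Arg1 differences was not tested.

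As a share of summed arginase TPM, Arg2 made up 48.9%, 37.3% and 34.3% in inhibition with spermidine, 79.4%, 77.5% and 76.3% in inhibition, and 0%, 0% and 4.48% in control libraries. Arginase in total was 3.06 to 3.75 TPM with inhibition and spermidine, 4.17 to 5.16 TPM with inhibition and 0.794 to 2.02 TPM in control. Arg1 TPM rests on implied lengths below its coding transcript of 1477 bases, so these shares and totals depend on the unit. The 0% shares rest on Arg2 values listed at 0, which may be failed estimates. Summed counts with inhibition and spermidine were 159 for Arg2 and 114 for Arg1, so Arg2 was the larger there in counts.

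The order of the 10 genes per transcript was similar at the top and different further down. In every group Slc3a2 led, with 32.2 ± 1.36 TPM in inhibition with spermidine, 26.2 ± 1.99 TPM in inhibition and 35.8 ± 0.82 TPM in control (SD, n = 3). Ass1 followed with 12.9 ± 0.35, 11.8 ± 0.48 and 19.1 ± 0.28 TPM in those groups, and then Slc22a3 with 6.42 ± 0.12, 5.20 ± 0.24 and 18.9 ± 1.06 TPM, overlapping Ass1 in control. In control Atp13a2 came next (6.47 ± 0.32 TPM), above Slc7a1 (4.52 ± 0.45 TPM), Atp13a3 (3.92 ± 0.36 TPM), Slc12a8 (1.28 ± 0.11 TPM), Arg1 (1.18 ± 0.64 TPM), Slc18b1 (0.732 ± 0.077 TPM) and Arg2. Of these neighbours, Slc7a1 and Atp13a3, Slc12a8 and Arg1, and Arg1 and Slc18b1 overlapped. With inhibition Arg2 stood in the place after Slc22a3 (3.65 ± 0.46 TPM), overlapping Atp13a3 (3.11 ± 0.33 TPM), ahead of Slc7a1 (2.26 ± 0.21 TPM) and Atp13a2 (1.39 ± 0.092 TPM). With spermidine the genes from Slc7a1 (2.24 ± 0.067 TPM) down to Slc18b1 (1.13 ± 0.20 TPM) each overlapped the next.

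For inhibition against control, where virus, drug and silencing cannot be told apart, 1 gene (Arg2) rose and 6 fell (Atp13a2, Slc12a8, Slc22a3, Ass1, Slc7a1 and Slc3a2). Atp13a3, Slc18b1 and Arg1 did not pass. Of all genes tested 72.4% passed, with 36.2% higher and 36.1% lower, so 7 of 10 is near the background. The median log2 fold change was -0.72 for the 10 genes and 0.021 for all genes. Libraries did not overlap for 8 of the 10 genes and for 74.5% of all genes, and 4 of the 10 (Arg2, Atp13a2, Slc12a8 and Slc22a3) were called with at least a 2-fold change, against 29.0% of all.

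For inhibition with spermidine against inhibition, which asks what the supplement changed, 4 genes rose (Slc18b1, Slc12a8, Arg1 and Atp13a2) and 4 fell (Arg2, Slc7a1, Atp13a3 and Ass1), while Slc3a2 and Slc22a3 did not pass. In the background 58.1% of genes passed, with 29.1% higher and 28.9% lower, and the median was 0.044 for the 10 genes and 0.027 for all. Libraries did not overlap for 7 of the 10 genes and for 62.8% of all, and 2 of the 10 (Arg2 and Slc18b1) were called with at least a 2-fold change, against 12.7% of all. The Slc18b1 change was under 2-fold without inhibition replicate 1, where it was listed at 0, and DESeq2 did not call it. With total count scaling, 6 rose and 1 fell, and over all genes 7711 were higher and 1793 lower, against 4213 and 4183 with trimmed-mean scaling. The direction of Atp13a3, Ass1 and Slc22a3 turned under it, and the directions of Arg2, Atp13a2, Arg1, Slc12a8 and Slc18b1 did not turn under any setting tried.

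For inhibition with spermidine against control, Arg2 and Arg1 rose, 7 genes fell (Atp13a2, Slc22a3, Slc12a8, Ass1, Slc7a1, Atp13a3 and Slc3a2) and Slc18b1 did not pass. Here 78.1% of all genes passed, with 41.0% higher and 37.1% lower, or 7705 higher and 3682 lower with total count scaling against 5930 and 5363. The median was -0.67 for the 10 genes and 0.060 for all. Libraries did not overlap for 9 of the 10 genes and for 79.8% of all, and 5 of the 10 (Arg2, Atp13a2, Slc22a3, Slc12a8 and Ass1) were called with at least a 2-fold change, against 32.9% of all. Of these, Ass1 only just reached that size (log2 fold change -1.001), and the direction of Slc12a8 depended on the unit, as given above. These comparisons share libraries, so they are not independent of each other.

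**Figure D4:**
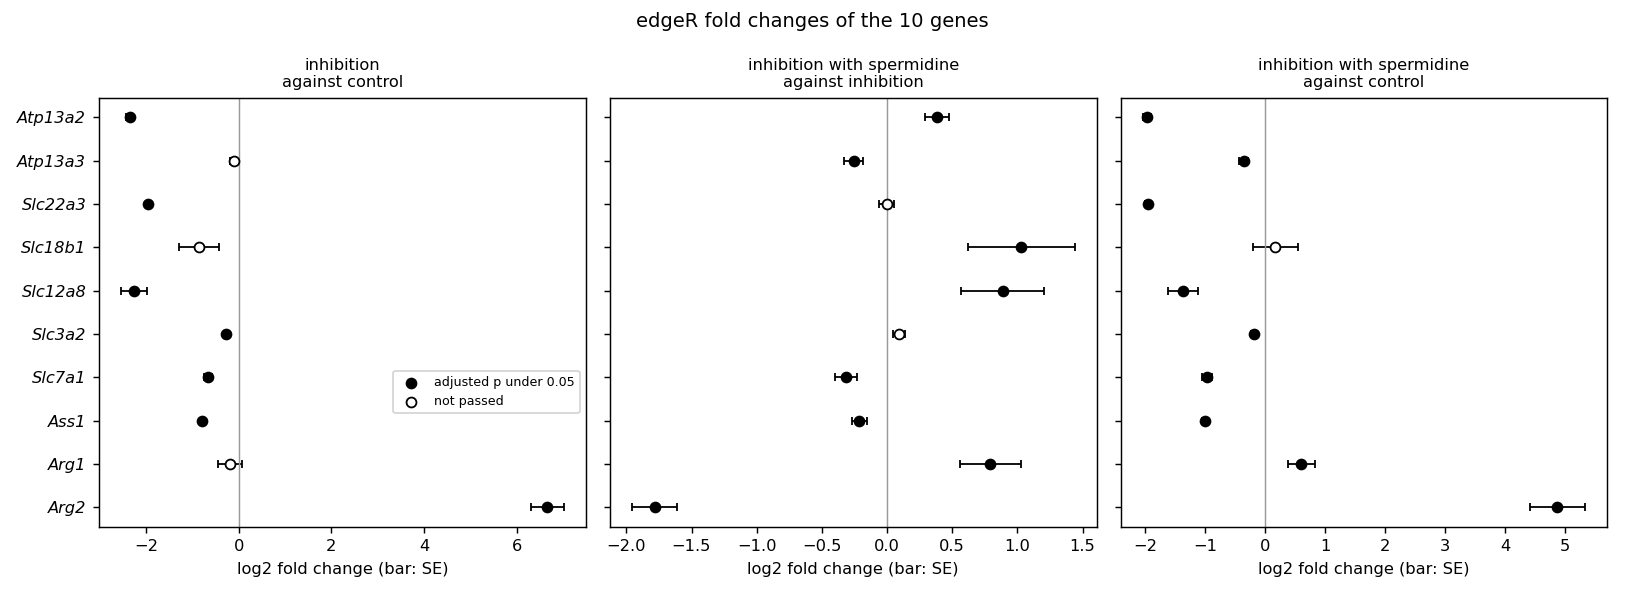
Log2 fold change of each gene in the 3 comparisons (bar, SE; filled, adjusted p under 0.05), with Arg2 the 1 gene of the 10 that rose with inhibition and Atp13a2 and Slc22a3 negative against control with and without spermidine. With total count scaling the values of Atp13a3, Ass1 and Slc22a3 between the silenced groups and of Slc3a2 for spermidine against control change sign, as does Slc12a8 for spermidine against control in TPM.

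Enzymes that make and break polyamines were counted as context. Of 15 tested, 7 rose and 5 fell with inhibition against control (median -0.0050), 3 rose and 7 fell with spermidine against inhibition (median -0.11), and 6 rose and 5 fell with spermidine against control (median 0.078). That is 12, 10 and 11 of 15, beside 72.4%, 58.1% and 78.1% of all genes. Odc1, ornithine decarboxylase, which uses the ornithine that arginase yields, averaged 114 ± 2.74 CPM with inhibition and spermidine, 95.9 ± 3.85 CPM with inhibition and 132 ± 2.69 CPM in control. Azin1, an inhibitor of the antizyme that blocks Odc1 and polyamine uptake, averaged 44.2 ± 1.34, 47.5 ± 1.33 and 29.8 ± 0.86 CPM in the same order and rose against control in both groups (log2 fold change of 0.57 with spermidine, adjusted p = 6.7e-09, and 0.67 with inhibition, adjusted p = 7.35e-10). Amd1, which supplies the aminopropyl donor, averaged 88.2 ± 2.46, 118 ± 1.86 and 69.1 ± 2.33 CPM. Srm, spermidine synthase, averaged 96.7 ± 2.98, 116 ± 6.38 and 142 ± 3.75 CPM. Sat1, which acetylates spermidine and spermine for export or breakdown, averaged 306 ± 5.47 CPM with inhibition and spermidine, 424 ± 2.04 CPM with inhibition and 151 ± 2.20 CPM in control, without overlap (log2 fold change of 1.49 for inhibition against control, adjusted p = 2.98e-17, and -0.47 for spermidine against inhibition, adjusted p = 4.22e-10).

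In the list of other arginine carriers and arginine-using enzymes 17 of 24 were tested. Of these 6 rose and 6 fell with inhibition against control, 5 rose and 5 fell with spermidine against inhibition, and 7 rose and 7 fell with spermidine against control. That is 12, 10 and 14 of 17, near the 72.4%, 58.1% and 78.1% of all genes. Gatm, the first enzyme of creatine synthesis, averaged 143 ± 2.07 CPM with inhibition and spermidine, 296 ± 8.95 CPM with inhibition and 85.9 ± 2.21 CPM in control, with no overlap. Oat, which turns ornithine into a precursor of glutamate and proline, had the same order (66.5 ± 1.51, 108 ± 1.43 and 56.0 ± 1.24 CPM). Padi4, a neutrophil enzyme that converts arginine residues of proteins into citrulline, averaged 6.83 ± 0.43 and 8.02 ± 0.43 CPM in the spermidine and inhibition groups, against 0.595 ± 0.16 CPM in control. Padi2, of the same family, averaged 3.55 ± 0.28 and 3.28 ± 0.33 CPM in the spermidine and inhibition groups, against 10.3 ± 1.64 CPM in control. Slc38a9, the lysosomal arginine sensor, averaged 19.7 ± 1.30, 15.4 ± 1.36 and 25.4 ± 0.56 CPM in inhibition with spermidine, inhibition and control.

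Of 8 relatives of the polyamine carriers tested out of 17, 3 rose and 3 fell with inhibition, and 2 rose and 3 fell with spermidine, against control. With spermidine against inhibition 2 rose and 2 fell. These 6, 5 and 4 of 8 stand beside 72.4%, 78.1% and 58.1% of all genes. Atp13a1, the P5A-type ATPase of the endoplasmic reticulum, averaged 6.64 ± 0.98 CPM with inhibition and spermidine and 6.70 ± 0.56 CPM with inhibition, against 16.6 ± 0.80 CPM in control (log2 fold change of -1.34 and -1.30, adjusted p = 1.25e-09 and 2.4e-09). Slc22a4, a carnitine and ergothioneine carrier, averaged 3.94 ± 0.50, 7.67 ± 0.56 and 4.35 ± 0.29 CPM, so it was higher with inhibition than in the other groups. Slc18a2, the vesicular monoamine transporter, averaged 50.3 ± 1.92, 39.4 ± 4.35 and 33.8 ± 0.92 CPM and was called higher in each comparison, by 0.57 on the log2 scale for spermidine against control (adjusted p = 3.22e-07).

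Over the 9 libraries, log2 CPM of Slc3a2 was most like that of Akap8, Depdc5 and Hsf1 (Pearson r of 0.985, 0.984 and 0.978). Slc22a3 was most like S100a2, H1f2 and Txndc16 (1.000, 0.999 and 0.999), and Ass1 most like Harbi1, Polr2l and Entpd1 (0.998), among 8297 genes with a mean of at least 5 CPM. The 9 points are 3 group levels with libraries close to each, so such values are a description only.

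**Figure D5:**
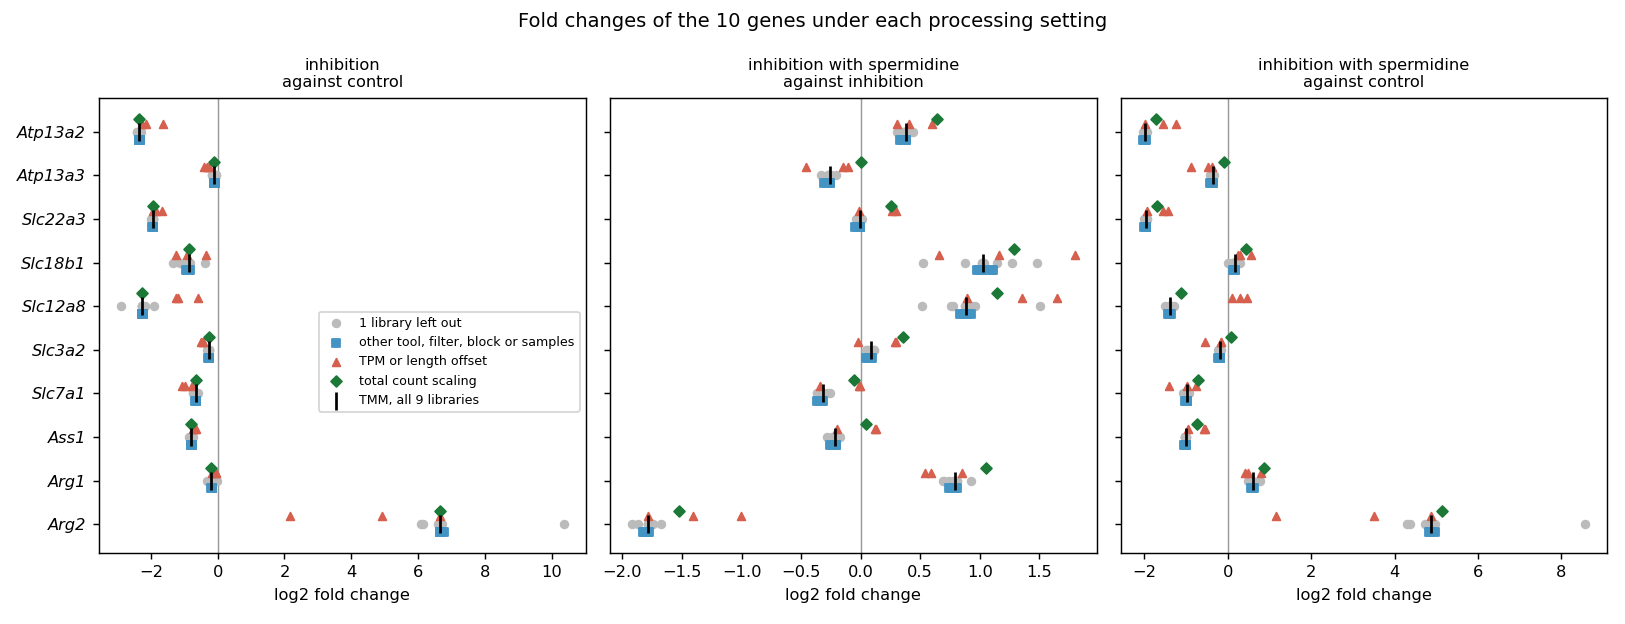
Log2 fold change of each gene under each processing setting, in the 3 comparisons, with trimmed-mean scaling on all 9 libraries as the black bar. Atp13a2, Slc22a3 and Ass1 stay below 0 against control throughout, while Atp13a3, Ass1 and Slc22a3, and with the length offset Slc3a2 (-0.025), cross 0 in the comparison of the silenced groups.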

How the data were processed

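RNA of sorted HSCs was measured in 9 libraries, 3 per group. The authors deposited estimated counts per gene (48.2% of values whole within 1e-06) and TPM, which sum to 937830 to 948800 per library. Per the submitters' processing notes, Trim Galore 0.6.2, STAR 2.6.1d, HTSeq 0.10.0, edgeR 3.24.3 and build mm10 were used, and the step that made fractional counts is not given in the sources used here. Estimated counts were rounded and tested with edgeR 4.0.16 (R 4.3.3), with TMM factors (0.931 to 1.14), filterByExpr, glmQLFit on all 9 libraries, and Benjamini-Hochberg adjustment over 14461 genes at 0.05. limma 3.58.1 on log2(TPM + 1) or log2(TPM + 0.1), DESeq2 1.42.0, other scalings, no filter, a replicate block, leaving out each library and an offset of implied length were alternatives. Implied length was count over TPM, scaled on 135 genes with 1 transcript of at least 3000 bases and at least 100 counts, in GENCODE M21. Scripts were tested on simulated data.

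All 10 genes were named, and up to 4 genes per context list and comparison with the smallest p, with values of some of these given in all groups. The genes and lists were chosen with earlier results of these data known. Total counts of 16096276 to 25360256 set the precision, and intervals cover counting error only. Replicates differed by more than counting noise (chi-square per gene of 2.45 to 7.72), so none was merged for the fits. Only the summed arginase counts and their counting intervals pooled the 3 libraries of a group.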

Additional observations from a re-analysis of the deposited data

How the results depend on the processing

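Of 570 values of the 10 genes under alternatives, 527 kept their direction and side of the threshold, 21 lost the call, 8 gained one and 14 changed sign. Counts of calls in both directions together stayed within 1.5 times, for all genes and for the 10, but not the split. For spermidine against inhibition 7711 genes were higher and 1793 lower with total count scaling and 7112 and 1256 on log2(TPM + 1), against 4213 and 4183, and for spermidine against control 7821 and 2811 on log2(TPM + 1), against 5930 and 5363. Of the 10 genes, 6 were higher and 1 lower for spermidine against inhibition with total count scaling, against 4 and 4. With total count scaling the median log2 fold change of all genes shifted by 0.26 for spermidine against either group (0.247 to 0.357 with TPM) and by 0.0020 for inhibition against control. For spermidine against inhibition it reversed Atp13a3 (0.0040, adjusted p = 0.967), Slc22a3 (0.26) and Ass1 (0.049), and for spermidine against control Slc3a2 (0.079), none above that shift. On log2(TPM + 1), Slc22a3 (0.26) and Ass1 (0.12) reversed for spermidine against inhibition and Slc12a8 (0.31) for spermidine against control. On log2(TPM + 0.1) these were 0.30, 0.13 and 0.47. With the implied length offset, chosen after seeing the data, Slc12a8 was 0.11 for spermidine against control and Slc3a2 -0.025 for spermidine against inhibition, where Slc22a3 (-0.0030) was 0.0050 without spermidine replicate 3 and 0.0080 without inhibition replicate 3, in a range of -0.041 to 0.0080 over the libraries left out. The gained calls were Atp13a3 and Slc18b1 for inhibition against control and Slc3a2 for spermidine against inhibition. The cause was not tested. With CPM in place of TPM the ratio of Slc3a2 to its light chains was 1.91 with inhibition and spermidine, 1.44 with inhibition and 2.30 in control, and the Arg2 share of arginase 57.8%, 89.1% and 4.44%, in the same order of groups. In TPM the mean share with inhibition and spermidine was 40.1%, so which arginase led in that group depends on the unit.

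With the replicate number as a replicate block, 7, 8 and 9 of the 10 genes were called for inhibition against control, spermidine against inhibition and spermidine against control, and 10379, 8261 and 11209 genes in all, and no call of the 10 genes changed. The labels do not say what a number shares, and residuals of the 9 same-numbered pairs correlated between -0.037 and 0.053. Low counts limit Arg1, Slc18b1 and Slc12a8.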
